A study of Mus musculus with 44 samples.

Results

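The complement and coagulation genes are 41 transcripts for plasma proteins that clot blood, dissolve clots, restrain clotting or carry out complement attack. They were taken from a fixed list of symbols, 22 of them for coagulation, fibrinolysis and vitronectin and 19 for complement. All 41 were found among the 35249 genes counted in mouse liver, and all 41 were among the 14862 genes that passed the filter on low counts.

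Hepatocytes make and secrete most of these proteins as inactive precursors. A cascade of proteases ends in thrombin, which turns fibrinogen into fibrin, and plasmin later digests that fibrin. Complement starts from C1q, from mannose-binding lectin or spontaneously at C3, converges on C3 and C5, and ends in a membrane pore. C1q is the exception in origin, since tissue macrophages are its main source, and the fibrinogen chains and C3 are acute-phase products that interleukin 6 raises in hepatocytes.

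RNA was sequenced from livers of wild type (WT) mice, of Ripk3-/- mice and of Mlkl-/- mice, 2 strains in which necroptosis is blocked because the kinase RIPK3 or its effector MLKL is missing. Mice started a diet when 2 months old and stayed on it for 6 months: a control diet, or choline-deficient food that was low in fat (CD-LFD) or high in fat (CD-HFD). WT groups held 6 libraries per diet. Ripk3-/- groups held 6 (control), 3 (CD-LFD) and 4 (CD-HFD), and Mlkl-/- groups held 6 (control), 4 (CD-LFD) and 3 (CD-HFD). The labels give no sex, litter, batch or cell type of deletion, and do not state that replicates are separate mice, so that p-values measure the spread between these libraries. Within a genotype both choline-deficient diets were compared with the same control libraries, and both knockouts with the same WT libraries.

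Levels are given as CPM, counts brought to a common library size, scaled by the trimmed mean of M-values (TMM), and called means an adjusted p under 0.05 in edgeR's quasi-likelihood test with Benjamini-Hochberg adjustment over all 14862 genes. SE is the standard error of a log2 change. The deepest library, WT CD-LFD replicate 3, had a total of 88204703 counts, and the rest had 2476268 to 12471844. Ripk3 was at 0 to 0.326 CPM in all Ripk3-/- libraries other than the library labelled Ripk3-/- control replicate 5, which held 1.26, against 0.511 to 4.89 in WT control livers. Mlkl was at 1.46 to 3.04 CPM in Mlkl-/- and 2.28 to 6.15 in WT control livers, which overlap. On CD-HFD it was at 14.3 to 17.7 CPM in WT livers and at 2.80 to 4.83 in Mlkl-/- libraries other than the library labelled Mlkl-/- CD-HFD replicate 1, which held 12.5. Which part of either gene was deleted is not given in the labels. WT control replicates 5 and 6 stood apart for many members, as with F13b at 34.2 and 41.5 CPM against 177 to 200 in the other 4. Both were below the other 4 for 19 of the 41 members. WT CD-LFD replicates 5 and 6 stood apart in the same way, both below the other 4 for 25 members, with F13b at 29.9 and 34.5 CPM against 56.7 to 146. In WT CD-HFD this held for 2 members. How often it held over all genes was not counted. Results that rest on these libraries are also given without them.

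Promoters are shown for the 3 fibrinogen chain genes, whose transcripts moved together across the 9 groups, and for C1qc as a gene of the other cell source. Each is the 250 bases before the RefSeq transcription start in build GRCm38.p6, read 5′ to 3′ on the gene's strand. Positions are chr3:83025903-83026152, plus strand for Fga, chr3:83049864-83050113, minus strand for Fgb, chr3:83007474-83007723, plus strand for Fgg and chr4:136892915-136893164, minus strand for C1qc. Capitals mark matches on either strand to GTTAAT (part of an HNF1 site), TTCNNNGAA (STAT), CTGGGA (the core of the interleukin 6 response element), TTGCNNAA (C/EBP) and GAGGAAGT (PU.1).
Fga: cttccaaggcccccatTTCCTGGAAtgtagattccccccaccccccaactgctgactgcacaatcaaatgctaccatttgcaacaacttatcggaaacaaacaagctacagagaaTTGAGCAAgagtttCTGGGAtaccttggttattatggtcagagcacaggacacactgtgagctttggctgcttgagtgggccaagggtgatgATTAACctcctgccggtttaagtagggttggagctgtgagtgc
Fgb: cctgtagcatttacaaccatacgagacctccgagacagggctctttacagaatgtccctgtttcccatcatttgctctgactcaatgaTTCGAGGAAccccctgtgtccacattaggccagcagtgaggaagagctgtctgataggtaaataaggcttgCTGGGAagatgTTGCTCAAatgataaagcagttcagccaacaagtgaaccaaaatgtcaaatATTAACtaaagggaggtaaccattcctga
Fgg: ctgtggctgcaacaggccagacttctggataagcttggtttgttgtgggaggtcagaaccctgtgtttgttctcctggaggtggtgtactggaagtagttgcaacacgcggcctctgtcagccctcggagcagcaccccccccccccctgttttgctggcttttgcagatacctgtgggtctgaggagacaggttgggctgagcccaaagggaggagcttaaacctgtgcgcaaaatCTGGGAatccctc
C1qc: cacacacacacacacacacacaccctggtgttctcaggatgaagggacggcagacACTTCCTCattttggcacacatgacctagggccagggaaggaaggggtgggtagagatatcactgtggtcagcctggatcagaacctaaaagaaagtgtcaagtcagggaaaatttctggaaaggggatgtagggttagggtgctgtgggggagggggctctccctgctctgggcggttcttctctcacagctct
Fga and Fgb each held matches to the first 4 motifs, Fgg held CTGGGA alone, and C1qc held GAGGAAGT alone. None of the marked matches overlapped another. Of the 41 genes, 32 had a promoter in the RefSeq table. GTTAAT was present in 28.1% of those 32 and in 6.43% of all 32851 promoters of the same length, TTCNNNGAA in 18.8% and 7.02%, TTGCNNAA in 21.9% and 9.56%, CTGGGA in 37.5% and 27%, and GAGGAAGT in 3.12% and 2.44%. Members were counted once per gene, and the background once per promoter (32851 promoters of 27025 genes), so that these shares differ in unit. A match describes letters only and is no measured site.

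In WT livers 33 of the 41 genes were lower and 3 were higher on CD-HFD than on the control diet. Over all genes tested, 24.1% were called lower and 23.5% higher. The median log2 change was -0.76 over the members and -0.07 over all genes. The 3 that rose were the C1q chains, and each of the other 38 had a negative log2 change. Of the 22 coagulation, fibrinolysis and vitronectin genes 21 fell, and of the 16 complement genes other than C1q 12 fell, with none among C3, Cfb and Cfi. Pros1 and C2 were not called either. Without WT control replicates 5 and 6 the numbers were again 33 and 3 (26.8% and 28.3% of all genes), with a median of -0.87. With a term for the clock class described below, 26 fell and 3 rose (20.5% and 23.5% of all genes). The larger class alone gave 22 and 3 (20.9% and 24.1%), and fitting only the compared groups 23 and 3 (17.8% and 20.1%).

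How many of these falls were called depended on the scaling. TMM factors ranged from 0.845 to 0.981 in WT control and from 1.12 to 1.34 in WT CD-HFD libraries. Scaling to library size alone moved the median change of all genes to 0.43 and the share of all genes called to 45.8% higher and 6.86% lower. Under it 11 members fell (F7, F10, Klkb1, Serpinf2, Serpinc1, Masp2, Mbl2, C6, C8a, C8b and C8g), and 4 rose, the C1q chains and C2. The fitted change of F12, Pros1, Vtn, C1ra, C4b, Mbl1, C3 and Cfi was above 0 under that scaling and not called. Relative to the median of all genes, the members' median was -0.69 under TMM and -0.70 under library size. A change of scaling shifts all genes of a comparison nearly alike. This difference therefore hardly depends on the scaling and is no test of the falls against it. As a share of raw counts, the members without C1q made up 2.40% to 4.24% of a library in WT control (mean 3.31% ± 0.755, SD, n = 6) and 2.74% to 3.19% in WT CD-HFD (2.96% ± 0.171, SD, n = 6), so that these ranges overlapped.

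**Figure D1:**
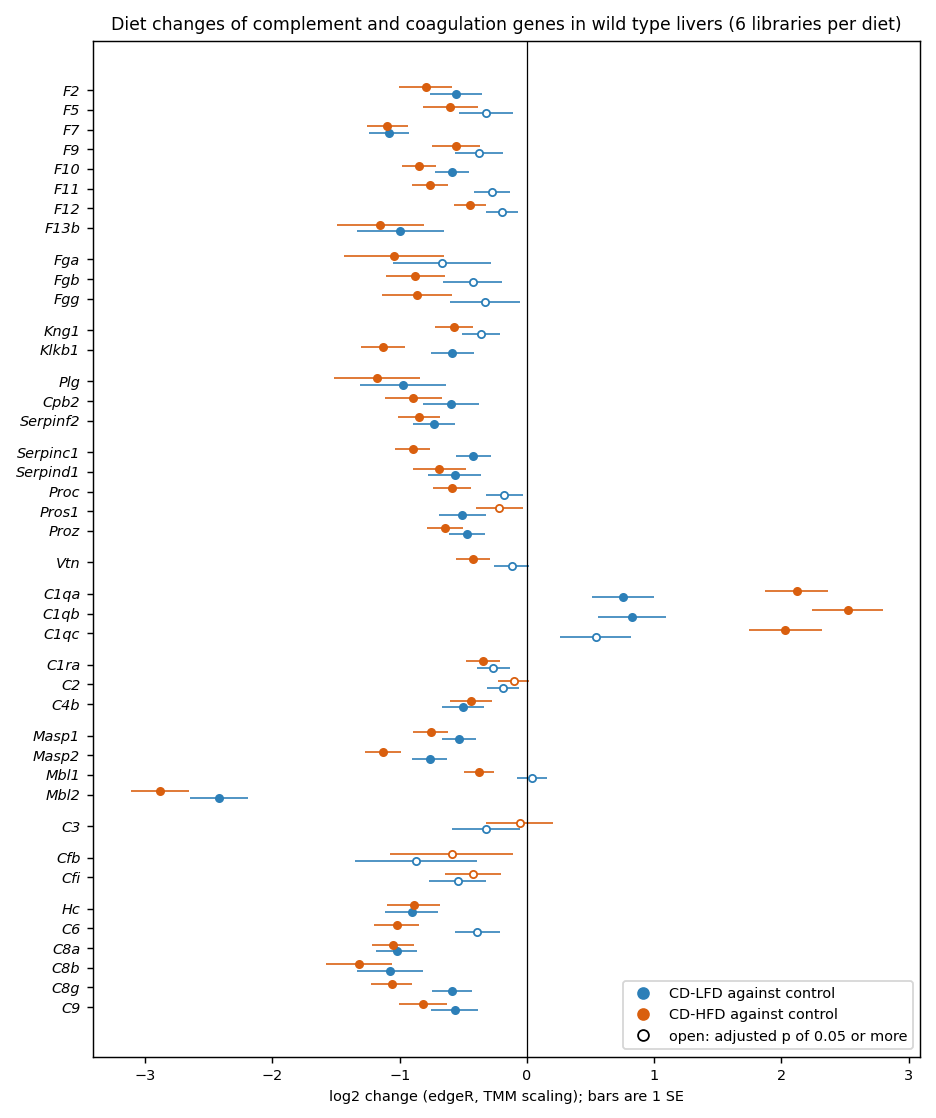
Log2 change of each of the 41 genes in WT livers against the control diet, CD-LFD in blue and CD-HFD in orange, with bars of 1 SE; open points were not called. The C1q chains lie to the right of 0, and Mbl2 lies furthest to the left on both diets, at -2.42 and -2.88.

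Hepatocyte markers moved with the falls: of 10, 8 were lower and 1 higher in WT CD-HFD, and their summed level was 96320 to 164900 CPM in WT control and 64220 to 104800 in WT CD-HFD. Cholangiocyte markers were all higher (6 of 6; 44.8 to 83.1 against 677.5 to 1127 CPM summed), as were 6 of 8 stellate cell and fibroblast markers (227.6 to 279.7 against 680.7 to 1253 CPM). Of the other marker lists, 5 of 8 endothelial markers fell, 4 of 5 tested T and NK cell markers and 2 of 3 tested neutrophil markers rose, and 3 of 5 tested erythroid markers fell. Of 4 tested B and plasma cell markers 1 rose, and of 2 megakaryocyte markers tested 1 rose and 1 fell. No hepatocyte, cholangiocyte or stellate cell marker was at 0 in all libraries of a group. Their part in the members' changes was not tested, and in bulk tissue fewer hepatocytes and less RNA per hepatocyte cannot be told apart.

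All 8 coagulation factors fell in WT CD-HFD, with log2 changes of -0.45 to -1.15. Factor VII (F7, ENSMUSG00000031443), which starts clotting when it meets tissue factor, was at 73.9, 134 and 150 CPM (lowest, median and highest) in WT control and at 48.5, 57.7 and 67.1 in WT CD-HFD. The highest CD-HFD library was below the lowest control library, and the log2 change was -1.10 (SE 0.158, adjusted p 2.5e-07). F7 was as low on CD-LFD, at 40.4, 55.8 and 80.8 CPM (-1.09, adjusted p 1.8e-06). F13b, the carrier subunit of the factor XIII that cross-links fibrin, was at 34.2, 178 and 200 CPM in WT control and 26.6, 57.5 and 96.7 in WT CD-HFD. Its groups overlapped through WT control replicates 5 and 6, and it fell by 1.15 on the log2 scale (SE 0.344, adjusted p 0.00536). Of the others, F10 (the protease that makes thrombin), F11 and F2 (prothrombin itself) changed by -0.85, -0.76 and -0.80. F9, F5 (the cofactor of F10) and F12, which starts the contact route, changed by -0.56, -0.60 and -0.45. The call of F5 was lost in 4 of 12 fits that left out 1 library, with an adjusted p of up to 0.0873 without WT control replicate 3.

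The fibrinogen chains are the clot's building material and, per kilobase of exon, were among the most abundant members. In WT control livers Vtn led at 1369 CPM per kilobase, followed by Fgg (1128), Fgb (1002), C3 (998.3) and Fga (962.5), while Cfb stood last at 2.58. In WT livers Fga was at 603, 2820 and 5342 CPM on control and 999, 1356 and 1980 on CD-HFD. Fgb was at 2184, 3727 and 5245 CPM and then 1633, 2073 and 2483, and Fgg at 1022, 2055 and 3889 and then 1007, 1329 and 1553. Values overlapped for all 3 chains, since control libraries spread widely and CD-HFD libraries lay close together. The log2 changes were -1.04 (SE 0.391, adjusted p 0.0258) for Fga, -0.88 (SE 0.233, adjusted p 0.00185) for Fgb and -0.86 (SE 0.275, adjusted p 0.00905) for Fgg. Without WT control replicate 1 the change of Fga was -0.78 with an adjusted p of 0.108.

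Both contact system genes fell. Plasma kallikrein (Klkb1, ENSMUSG00000109764) was at 202, 220 and 350 CPM in WT control and 87.2, 109 and 159 in WT CD-HFD, without overlap (log2 change -1.13, SE 0.173, adjusted p 8.1e-07). Its partner Kng1, the kininogen from which bradykinin is cut, changed by -0.57. Klkb1 shares 43.2% of its exon bases on the same strand with the gene model Gm45753 in GENCODE M21, and how reads in shared exons were assigned is not given in the sources used here.

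Plasminogen and both of its brakes fell as well. Plg, the precursor of plasmin, was at 405, 2078 and 2733 CPM in WT control and 474, 706 and 992 in WT CD-HFD (log2 change -1.18, SE 0.339, adjusted p 0.00378). Its groups overlapped only because WT control replicates 5 and 6 were at 496 and 405. Cpb2, the carboxypeptidase that protects fibrin from plasmin, changed by -0.89, and Serpinf2, the direct inhibitor of plasmin, by -0.85.

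Among natural anticoagulants, antithrombin (Serpinc1) was at 1553, 2439 and 2772 CPM in WT control and at 1131, 1222 and 1454 in WT CD-HFD. No CD-HFD library reached the lowest control library, and the log2 change was -0.90 (SE 0.137, adjusted p 7.2e-07). Heparin cofactor II (Serpind1), a second thrombin inhibitor, was at 222, 476 and 612 CPM and then 212, 304 and 331, with overlap (-0.69, SE 0.209, adjusted p 0.00604). Proz, the cofactor for inhibition of F10, and Proc, whose product destroys F5 and F8, changed by -0.65 and -0.59. The cofactor of Proc, Pros1, was not called (-0.22, adjusted p 0.341). Vitronectin (Vtn), which stabilises an inhibitor of fibrinolysis and blocks the complement pore, was at 1926, 2819 and 3681 CPM and then 1603, 2083 and 2493 (-0.43, SE 0.136, adjusted p 0.00900). Its fall was not called when WT control replicates 5 and 6 were left out together (-0.31, adjusted p 0.0593), and its fitted value was 0.06 under library size scaling.

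The C1q chains, the recognition unit of the classical pathway, moved the other way under TMM, RLE and library size scaling alike. C1qb (ENSMUSG00000036905) was at 17.8, 28.1 and 32.9 CPM in WT control and at 120, 142 and 216 in WT CD-HFD. C1qa was at 23.9, 32.1 and 50.2 CPM and then 119, 151 and 194, and C1qc at 18.6, 26.3 and 31.5 and then 80.3, 101 and 161. Every CD-HFD library was above every control library for all 3 chains. The log2 changes were 2.52 (SE 0.277, adjusted p 7.0e-10) for C1qb, 2.12 (SE 0.247, adjusted p 2.8e-09) for C1qa and 2.03 (SE 0.285, adjusted p 1.5e-07) for C1qc. On CD-LFD, C1qa and C1qb were higher by 0.76 and 0.83 (adjusted p 0.017 and 0.019), while C1qc was not called (0.54, adjusted p 0.15). Without WT CD-LFD replicate 2 neither C1qa nor C1qb was called (adjusted p 0.0556 and 0.0610). CD-HFD also stood above CD-LFD in WT livers for all 3, with changes of 1.36 (C1qa), 1.69 (C1qb) and 1.49 (C1qc) and no overlap.

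**Figure D2:**
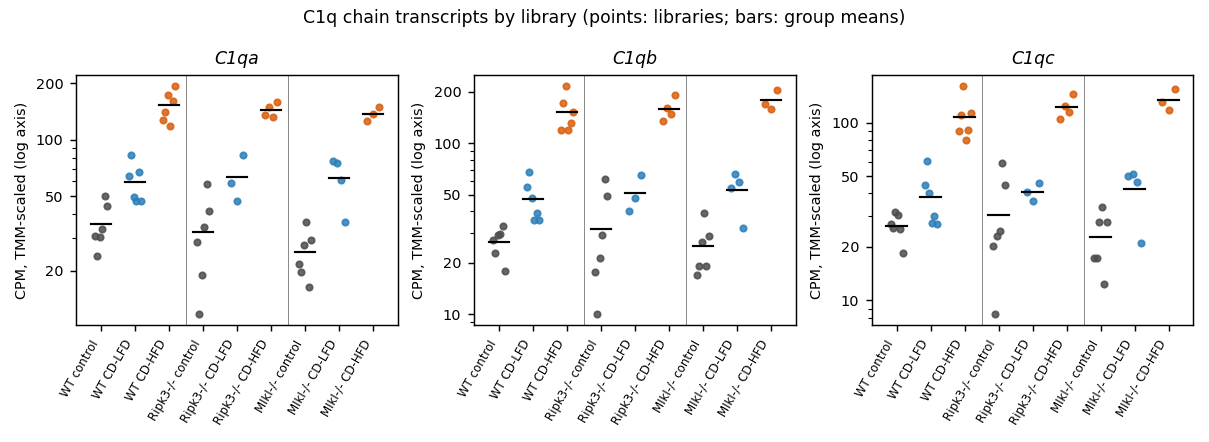
Level of C1qa, C1qb and C1qc (TMM-scaled CPM, log axis) in every library by genotype and diet; bars are group means. In each genotype the CD-HFD libraries lie above all control libraries, as with C1qb at 120 to 216 CPM against 17.8 to 32.9 in WT.

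Markers of macrophages and Kupffer cells rose beside C1q. Of 12, 7 were higher and 3 lower in WT CD-HFD, and their summed level was 261.2 to 318.7 CPM in WT control, 327.9 to 499.6 in WT CD-LFD and 988.4 to 2399 in WT CD-HFD. The same sum was 110.8 to 604.7 CPM in Ripk3-/- control and 1400 to 1912 in Ripk3-/- CD-HFD, and 182.3 to 394.9 and 1383 to 2199 in the same Mlkl-/- groups. Trem2, a receptor of lipid-associated macrophages, changed by 6.73, Lyz2 (lysozyme) by 4.47 and Cd68 by 3.81. Among markers of resident Kupffer cells, Timd4 fell by 4.60, Marco by 2.33 and Clec4f by 1.68 on the log2 scale. Cd5l and Vsig4 are resident markers too, and no more than 3 of the 12 were called lower. On CD-HFD 7 were higher and 2 lower in Ripk3-/- livers, and 8 higher and 1 lower in Mlkl-/- livers. None of the 12 was at 0 in all libraries of a group, and the part of macrophage number in the C1q values was not tested.

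Below C1q, changes in the classical pathway were smaller than those of C1q in WT CD-HFD livers. C4b, the mouse C4 that C1s cleaves, was at 1195, 1436 and 1822 CPM in WT control and at 999, 1091 and 1250 in WT CD-HFD, with overlap (log2 change -0.44, SE 0.166, adjusted p 0.0270). That call was lost under RLE size factors (-0.37, adjusted p 0.0595) and without WT control replicate 1 (-0.37, adjusted p 0.0738), and the fitted value was 0.06 under library size scaling. The protease gene C1ra changed by -0.35 (adjusted p 0.0272), and C2, the protease that C4b carries, by -0.10 (adjusted p 0.512). C4b was also called lower in both knockouts on CD-HFD, and in all 3 genotypes on CD-LFD. C4b and C1ra have near-identical neighbours, C4a and C1rb, whose reads may be shared with them.

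The lectin pathway held the deepest fall of all members. Mbl2 (ENSMUSG00000024863), a mannose-binding lectin that recognises microbial sugars, was at 180, 348 and 565 CPM in WT control, 45.8, 68.6 and 85.0 in WT CD-LFD and 35.7, 47.8 and 69.9 in WT CD-HFD. No library on either choline-deficient diet reached the lowest control library. The log2 change was -2.42 on CD-LFD (adjusted p 1.1e-10) and -2.88 on CD-HFD (SE 0.231, adjusted p 2.5e-13), and it was -2.37 on CD-HFD under library size scaling. Per kilobase, Mbl2 ranked 11 of 41 in WT control and 30 of 41 in WT CD-HFD. The related lectin Mbl1 changed by -0.38 on CD-HFD (adjusted p 0.00706) and 0.04 on CD-LFD (adjusted p 0.84). The lectin pathway's proteases Masp1 and Masp2 changed by -0.76 and -1.13 on CD-HFD.

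C3, on which every pathway converges, was not called. Its CPM was 2609, 4733 and 8416 in WT control and 3603, 4764 and 6191 in WT CD-HFD (log2 change -0.06, SE 0.265, adjusted p 0.877). Neither was Cfb, the protease of the alternative pathway, at 0.978, 7.49 and 13.6 CPM and then 2.48, 3.86 and 9.93 (-0.59, SE 0.483, adjusted p 0.323), nor Cfi, which inactivates C3b (-0.43, adjusted p 0.110). The level of Cfb is uncertain, since 79.5% of its exon bases, and 42.8% of those of its neighbour C2, lie on the same strand within exons of Gm20547. That gene model spans both and is not among the genes of the count table. On the opposite strand, 54.9% of the exon bases of Masp2 lie within exons of Tardbp and 34.4% of those of Serpinc1 within exons of Zbtb37. Whether the counting used strand is not given in the sources used here, so these levels are uncertain too.

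All 6 terminal pathway genes fell, with a median log2 change of -1.04. C8b (ENSMUSG00000029656), a chain of the pore component C8, was at 153, 351 and 453 CPM in WT control and 99.1, 130 and 156 in WT CD-HFD (-1.32, SE 0.260, adjusted p 5.3e-05). Its groups met only at WT control replicate 6, which was at 153 CPM. C8g, the small chain of C8, was at 368, 440 and 746 CPM and then 172, 232 and 309, without overlap (-1.06, SE 0.158, adjusted p 4.5e-07). The third chain C8a changed by -1.05, C6 by -1.03, Hc (which encodes C5) by -0.89 and the pore-forming C9 by -0.82.

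On CD-LFD, members called lower in WT livers numbered 21 and those called higher 2 (C1qa and C1qb), against 14% and 13.7% of all genes, with a median of -0.51 against -0.04. Fibrinolysis genes fell in 3 of 3 cases, anticoagulants in 4 of 5, terminal pathway genes in 5 of 6 and coagulation factors in 4 of 8, while none of the fibrinogen chains was called (-0.67, -0.43 and -0.33). Beside these values, 4 of 10 hepatocyte markers and 4 of 8 endothelial markers fell, 6 of 8 stellate cell and fibroblast markers and 4 of 6 cholangiocyte markers rose, 4 of 5 tested T and NK cell markers rose and 1 fell, and of 12 macrophage markers 5 rose and 2 fell. Their part in the members' changes was not tested. Under library size scaling 8 fell (F7, F10, Serpinf2, Masp2, Mbl2, Hc, C8a and C8b) and 4 rose (C1qa, C1qb, C1qc and Mbl1), against 4.96% and 27.9% of all genes under that scaling. Without WT CD-LFD replicates 5 and 6, a setting chosen after seeing the data, 11 fell and 2 rose (6.82% and 8.97% of all genes) with a median of -0.29. Without replicates 5 and 6 of both WT control and WT CD-LFD, 19 fell and 2 rose (13.7% and 14.7% of all genes). Leaving out 1 library moved the number called to between 15 and 29, with 15 without WT control replicate 3, WT CD-LFD replicate 2 or WT CD-LFD replicate 5. With a term for the clock class described below, 14 fell and none rose (11.3% and 11.4% of all genes).

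The direct comparison of both choline-deficient diets in WT livers called 7 members lower and 3 higher on CD-HFD, against 7.4% and 13.7% of all genes. Beside the C1q chains, F11 (-0.49), Klkb1 (-0.54), Serpinc1 (-0.48), Proc (-0.41), Mbl1 (-0.42), C6 (-0.64) and C8g (-0.47) were lower on CD-HFD, of which Proc and Mbl1 did not overlap between the groups. The fitted change was lower on CD-HFD than on CD-LFD for 31 of the 41 members. Beside these values, all 6 cholangiocyte markers, 7 of 12 macrophage markers, 4 of 8 stellate cell and fibroblast markers and 3 of 5 tested T and NK cell markers were higher on CD-HFD, 1 of 10 hepatocyte markers was lower, and 6 of 30 other secreted liver proteins were lower. Their part in the members' differences was not tested. Under library size scaling no member fell and 4 rose (3.36% and 20.6% of all genes). Without WT CD-LFD replicates 5 and 6, 12 fell and 3 rose (8.67% and 14.6% of all genes), and without replicates 5 and 6 of WT control as well, 17 fell and 3 rose (11.7% and 16.6% of all genes). With a term for the clock class, 2 fell and 3 rose (4.04% and 11.1% of all genes). That class and the diets were nearly the same split, with 6 of 6 WT CD-LFD libraries and 1 of 6 WT CD-HFD libraries in the class with a high ratio of the clock gene Arntl to the clock gene Dbp. RLE scaling gave 5 falls (6.24% of all genes) and no count filter 3 (2.4%).

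On CD-HFD, Ripk3-/- livers had 29 members lower and 3 higher (21.7% and 24.6% of all genes) and Mlkl-/- livers 28 lower and 3 higher (20.3% and 24.9%), with medians of -0.81 and -0.66. Under library size scaling 14 were lower and 5 higher in Ripk3-/- livers (4.96% and 46.2% of all genes), and 12 lower and 4 higher in Mlkl-/- livers (4.89% and 42.8%). Hepatocyte markers were lower in 7 and 4 of 10 cases, and all 6 cholangiocyte markers were higher in both. Also higher in both were 6 of 8 stellate cell and fibroblast markers, 4 of 5 tested T and NK cell markers and 3 of 4 tested B and plasma cell markers. Endothelial markers were lower in 4 and 1 of 8 cases. The part of these markers in the members' changes was not tested. In all 3 genotypes 26 members fell, the 3 C1q chains rose, and Pros1, C2, C3 and Cfb were called in none. Of all genes, 10.6% fell and 17.9% rose in all 3. Mbl2 changed by -2.90 in Ripk3-/- and -2.81 in Mlkl-/- livers, and C1qb by 2.33 and 2.83. C8b changed by -1.62 and -1.78, C6 by -1.30 and -1.65, and Hc by -1.28 and -1.07. F13b was not called in either knockout (-0.56 and -0.57, adjusted p 0.23 and 0.28), and F11 changed by -0.04 in Ripk3-/- livers (adjusted p 0.84). The difference of F11 from WT was 0.72 with an adjusted p of 0.112.

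On CD-LFD, 23 members were lower and 1 was higher in Ripk3-/- livers (10.1% and 14% of all genes), and 16 were lower and 6 higher in Mlkl-/- livers (18.3% and 19.7%). Under library size scaling 13 were lower and 2 higher in Ripk3-/- livers (3.45% and 26.3% of all genes), and 14 lower and 6 higher in Mlkl-/- livers (12.9% and 25.1%). Without the library Ripk3-/- CD-LFD replicate 3 8 members fell and none rose in the first of these, which had 3 libraries, and the shares of all genes dropped as well, to 3.22% lower and 5.9% higher. F7, Plg, Cpb2, Serpinf2, C4b, Masp1, Masp2, Mbl2, Hc, C8a and C8b fell on CD-LFD in all 3 genotypes, 11 members in all, against 3.8% of all genes. The 6 that rose in Mlkl-/- livers were the C1q chains (1.30, 1.08 and 0.89), C2 (0.61), Klkb1 (0.51) and Proc (0.45). Of 10 hepatocyte markers, 1 fell in Ripk3-/- CD-LFD livers, while 2 rose and 2 fell in Mlkl-/- CD-LFD livers, where their sum was 136700 to 146200 CPM against 115600 to 135300 on control. All 6 cholangiocyte markers rose in Ripk3-/- and none was called in Mlkl-/- livers on this diet. Of 12 macrophage markers 4 rose and 2 fell in each knockout. Stellate cell and fibroblast markers rose in 5 (Ripk3-/-) and 3 (Mlkl-/-) of 8 cases. In both, 3 of 5 tested T and NK cell markers and 3 of 4 tested B and plasma cell markers rose. Of 8 endothelial markers 3 fell and 1 rose in Ripk3-/- livers, and 4 fell in Mlkl-/- livers. The part of these markers in the members' changes was not tested.

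**Figure D3:**
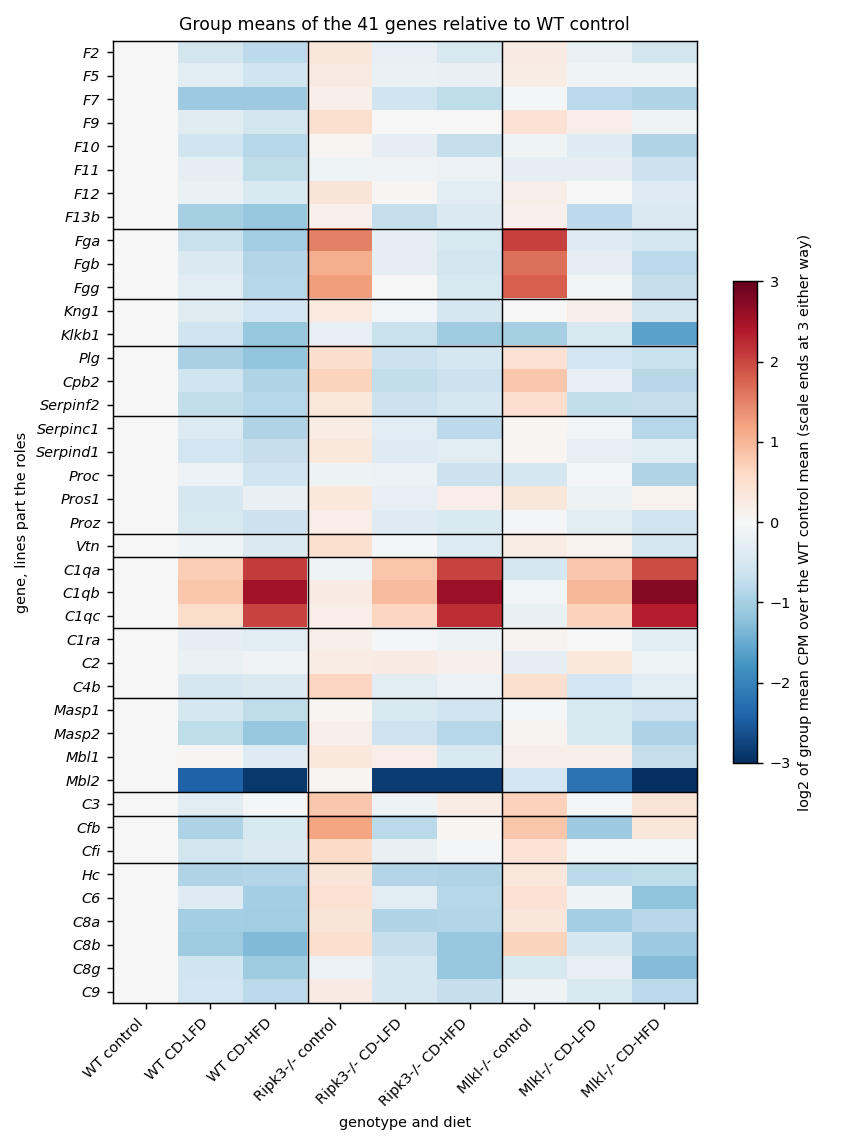
Log2 ratio of each gene's group mean CPM to its WT control mean for the 41 genes (rows, parted by role) in the 9 groups (columns). The fibrinogen rows are red in the control groups of both knockouts, the C1q rows are red on CD-HFD in all genotypes, and the Mbl2 row is blue on every choline-deficient diet.

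On the control diet the fibrinogen chains were higher in both knockouts than in WT livers. Ripk3-/- livers had 5 members higher and none lower (2.25% of all genes were called higher): Fga, Fgb, Fgg, Vtn and C4b, with 14 members at an unadjusted p under 0.05. Mlkl-/- livers had 7 higher and 4 lower (13% and 14.1% of all genes). The 7 were Fga, Fgb, Fgg, Cpb2 (0.81), C8b (0.67), Serpinf2 (0.50) and C4b (0.48). The 4 were Klkb1 (-0.99), Mbl2 (-0.57), Proc (-0.51) and C8g (-0.47). Medians over the members were 0.31 and 0.18, against -0.03 and -0.06 over all genes. Without WT control replicates 5 and 6 they were 0.19 and -0.03, so that the direction in Mlkl-/- livers turned. In that setting 3 members were higher in Ripk3-/- livers (1.48% of all genes). In Mlkl-/- livers 3 were then higher and 2 lower (9.98% and 8.99% of all genes), so that several of the calls named above were lost. The 11 calls in Mlkl-/- livers are a share of the members close to that of all genes. A fit of only the compared groups called 0 and 5 members (0.399% and 15.2% of all genes). Beside these values, 1 of 10 hepatocyte markers was higher in each knockout, 1 and 2 of 3 tested neutrophil markers were higher, and no macrophage marker was called. In Mlkl-/- livers 3 of 4 tested B and plasma cell markers were lower, 2 of 6 cholangiocyte markers were higher, 1 of 8 stellate cell markers was higher, and of 8 endothelial markers 2 were higher and 1 lower.

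Fga was at 603, 2820 and 5342 CPM in WT control, 3088, 8959 and 12492 in Ripk3-/- control and 5509, 12632 and 16998 in Mlkl-/- control. All 6 Mlkl-/- libraries exceeded the highest WT library, while Ripk3-/- replicates 1 and 2, at 3088 and 4223, lay within the WT range. The log2 differences from WT were 1.52 (SE 0.396, adjusted p 0.0186) in Ripk3-/- and 2.06 (SE 0.403, adjusted p 2.0e-04) in Mlkl-/- livers. Fgb was at 4383, 8687 and 12003 CPM in Ripk3-/- and 4955, 12402 and 16103 in Mlkl-/- control, and differed from WT by 1.08 (SE 0.234, adjusted p 0.00379) and 1.65 (SE 0.237, adjusted p 2.4e-06). Fgg was at 3156, 6164 and 7654 CPM and at 3428, 8543 and 11082, and differed by 1.25 (SE 0.278, adjusted p 0.00490) and 1.80 (SE 0.282, adjusted p 9.7e-06). Mlkl-/- replicate 6 was the lowest Mlkl-/- library for all 3 chains, and for Fgb and Fgg it lay below the highest WT library.

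The 3 chains together held 0.799% ± 0.342 (SD, n = 6) of all counts in WT control, 1.79% ± 0.713 (SD, n = 6) in Ripk3-/- control and 2.73% ± 0.8289 (SD, n = 6) in Mlkl-/- control. On either choline-deficient diet this share was 0.437% to 1.18% in the libraries of all 3 genotypes. Within the sum per kilobase, the share of Fga had a median of 33.4% in WT control, 36.3% in Ripk3-/- control and 37.5% in Mlkl-/- control, and one of 24.6% in WT CD-LFD.

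**Figure D4:**
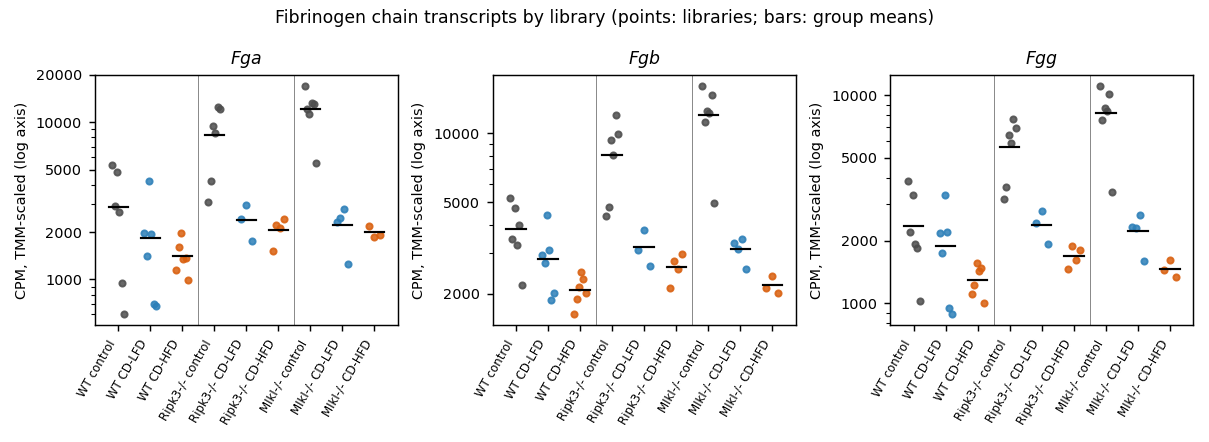
Level of Fga, Fgb and Fgg (TMM-scaled CPM, log axis) in every library by genotype and diet; bars are group means. The knockout control libraries reach 12492 CPM (Ripk3-/-) and 16998 CPM (Mlkl-/-) for Fga, and Fga does not exceed 4217 in any library on a choline-deficient diet.

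Other acute-phase transcripts were also high in knockout livers on the control diet. Saa1, the precursor of serum amyloid A, was at 13.2, 37.9, 2075, 2811, 9103 and 5152 CPM in Ripk3-/- control replicates 1 to 6, at 473.1 to 4053 in Mlkl-/- control and at 12.3 to 43.7 in WT control. Lcn2 (lipocalin 2) was at 2.53, 5.45, 190, 178.6, 806 and 765.4 CPM in the same Ripk3-/- libraries and at 16.3 to 818.1 in Mlkl-/- control, against 0.456 to 6.599 in WT control. Of 12 genes tested from the list of interleukin 6 type responses, 8 were higher and 1 lower in Ripk3-/- control and 9 higher and 1 lower in Mlkl-/- control than in WT control. Stat3, the transcription factor of that response, differed by 1.27 (adjusted p 8.6e-04) and 1.64 (adjusted p 3.6e-06). In WT CD-HFD livers Saa1 (2.64) and Lcn2 (7.38) rose while the 3 fibrinogen chains fell. The part of an acute-phase state in the fibrinogen values was not tested.

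A second measure that moved with genotype on the control diet was the clock ratio. The log2 ratio of Arntl to Dbp, clock genes that peak at opposite times of day, split the libraries into 11 high and 33 low ones. In WT control 4 of 6 libraries were high, all 6 in WT CD-LFD, 1 of 6 in WT CD-HFD and none in any knockout group. With the class as a term in the fit, the differences of Mlkl-/- from WT on the control diet were 2.24 for Fga (adjusted p 0.00197), 1.77 for Fgb (adjusted p 1.5e-04) and 2.01 for Fgg (adjusted p 2.2e-04), and 4 members were higher and 2 lower (9.74% and 7.27% of all genes). For Ripk3-/- the difference of Fga was then 1.70 with an adjusted p of 0.0931, and Fgb and Fgg were the 2 members called (0.606% of all genes were higher). Without WT control replicates 5 and 6, Fga in Ripk3-/- differed by 1.07 (adjusted p 0.126) and in Mlkl-/- by 1.61 (adjusted p 0.00278). Without the library labelled Ripk3-/- control replicate 5, Fgb and Fgg were the 2 members called in Ripk3-/- livers, and Fga differed by 1.36 (adjusted p 0.0519). Over the 12 fits that left out 1 library, 2.65% to 6.88% of all genes were called in this comparison.

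On the choline-deficient diets few members, and few of all genes, were called between genotypes. On CD-LFD none was called in Ripk3-/- against WT livers (1.1% of all genes were called in either direction, and 2 members had an unadjusted p under 0.05; DESeq2 called 0), and 1 was higher in Mlkl-/- livers (1.64% of all genes called higher), namely C2. On CD-HFD none was called in Ripk3-/- (0.377% of all genes, 3 members unadjusted, 1 by DESeq2) or in Mlkl-/- livers (0% of all genes, 2 members unadjusted, 0 by DESeq2). The medians over the members for CD-LFD were 0.17 in Ripk3-/- and 0.22 in Mlkl-/- livers, with 37 and 38 of the 41 above 0, against 0.007 and -0.002 over all genes. Without WT CD-LFD replicates 5 and 6 these medians were 0.005 and 0.073, against 0.011 and -0.001 over all genes. For CD-HFD they were 0.20 and 0.13, with 36 and 31 above 0, against 0.005 and 0.029 over all genes. C2 on CD-LFD was at 66.1, 57.4, 53.7 and 62.1 CPM in Mlkl-/- livers and at 38.3, 41.8 and 44.9 in WT livers, without overlap (log2 difference 0.51, SE 0.135, adjusted p 0.0315). That call was lost in 7 of 10 fits that left out 1 library, under library size scaling (0.27, adjusted p 0.236) and with the clock class as a term (0.40, adjusted p 0.835), and without WT CD-LFD replicates 5 and 6 (0.47, adjusted p 0.139). On CD-LFD all 6 WT libraries were in the high class and all 4 Mlkl-/- libraries in the low class. The clock term therefore cannot part class from genotype here.

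Differences in diet response between genotypes were tested as interactions. For CD-LFD, 3 members had a higher and 2 a lower response in Mlkl-/- than in WT livers (4.37% and 4.08% of all genes), a share of the members near that of all genes. For CD-HFD 2 had a lower response (2.54% of all genes). In Ripk3-/- livers none was called for CD-LFD (0.0269% of all genes; 3 members unadjusted, 0 by DESeq2) or for CD-HFD (0.478%; 5 members unadjusted, 1 by DESeq2). These tests share the control libraries with the comparison of genotypes above.

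Fgb fell by 1.94 on CD-LFD and 2.46 on CD-HFD in Mlkl-/- livers, to 2554 to 3462 and 2018 to 2400 CPM, and its response differed from WT by -1.51 (SE 0.352, adjusted p 0.00557) and -1.58 (SE 0.376, adjusted p 0.0128). Fgg fell by 1.89 and 2.49, and its response differed by -1.56 (SE 0.417, adjusted p 0.0154) and -1.63 (SE 0.445, adjusted p 0.0290). Fga had differences of -1.77 and -1.55 that were not called (adjusted p 0.0530 and 0.156). Leaving out Mlkl-/- CD-HFD replicate 4 raised the adjusted p of the CD-HFD difference to 0.0523 for Fgb and 0.0915 for Fgg. Without the library labelled Mlkl-/- CD-HFD replicate 1 it was 0.0604 for Fgg and 0.0310 for Fgb, the 1 member then called. Over the 21 fits that left out 1 library, 1.28% to 8.52% of all genes were called in this interaction.

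Klkb1 took opposite calls on CD-LFD. It was at 99.9, 124 and 182 CPM in Mlkl-/- control and at 190, 170, 174 and 193 in Mlkl-/- CD-LFD livers (log2 change 0.51, adjusted p 0.0302, and 0.0719 without Mlkl-/- control replicate 4), whereas it fell in WT livers from 202, 220 and 350 to 147, 167 and 193 CPM (-0.59, adjusted p 0.0091). The groups overlapped in Mlkl-/- livers and not in WT livers, and the difference of the responses was 1.10 (SE 0.255, adjusted p 0.00545). It held in all 22 fits that left out 1 library, with an adjusted p of up to 0.0130. Klkb1 fell in Mlkl-/- livers on CD-HFD, to 94.5, 92.5 and 63.6 CPM (-0.61, adjusted p 0.0192, and 0.132 without replicate 4 of that group).

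C2 and C8g had the same direction of difference as Klkb1. C2 was at 30.6, 37.4 and 58.3 CPM in Mlkl-/- control and 53.7 to 66.1 in Mlkl-/- CD-LFD (0.61, adjusted p 6.4e-04), with a difference from the WT response of 0.80 (SE 0.184, adjusted p 0.00534). C8g was at 296, 348 and 394 CPM in Mlkl-/- control and at 408, 377, 398 and 440 in Mlkl-/- CD-LFD, a change that was not called (0.22, adjusted p 0.31). In WT livers it fell to 279, 310 and 401 CPM, and the responses differed by 0.81 (SE 0.234, adjusted p 0.0233). Without WT control replicate 5, where C8g was highest at 746 CPM, that adjusted p was 0.0563, and without WT CD-LFD replicates 5 and 6 it was 0.0577.

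**Figure D5:**
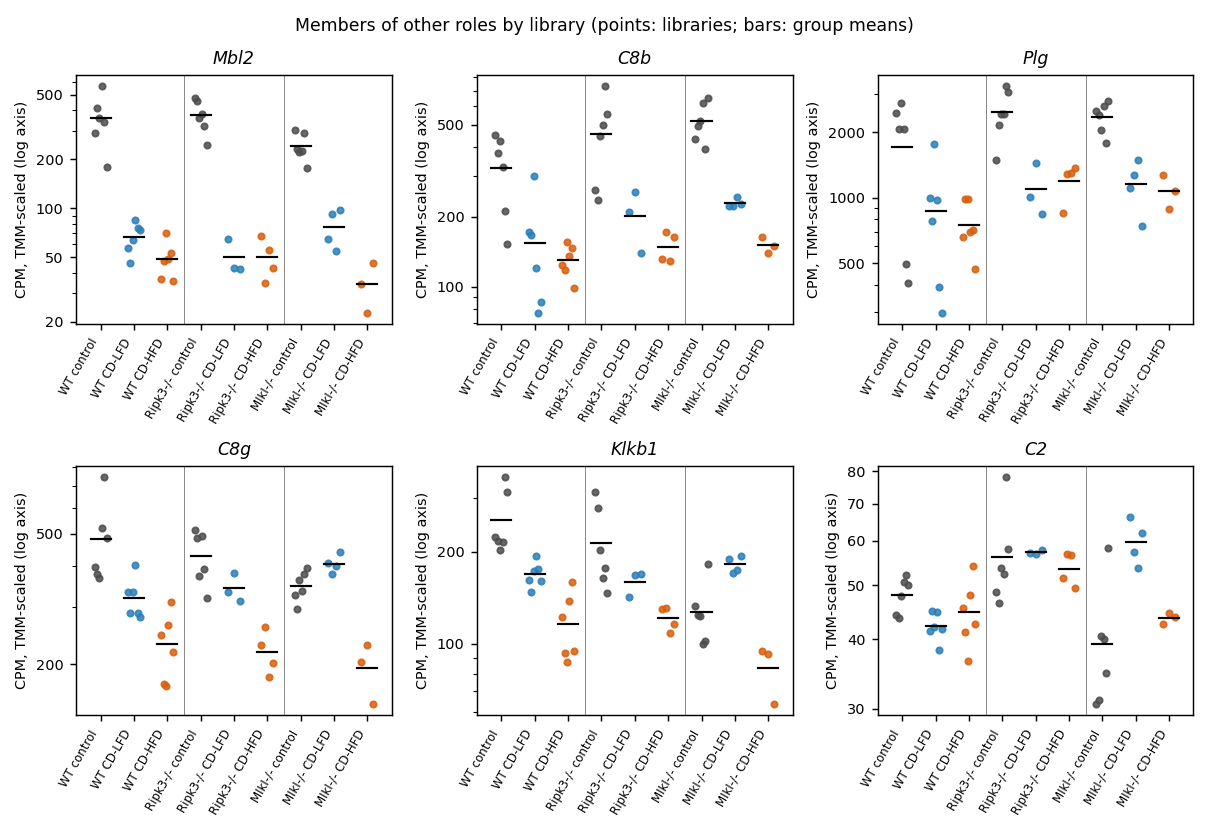
Level of Mbl2, C8b, Plg, C8g, Klkb1 and C2 (TMM-scaled CPM, log axis) in every library by genotype and diet; bars are group means. Mbl2 is low on both choline-deficient diets in all genotypes, and in Mlkl-/- livers Klkb1 is at 170 to 193 CPM on CD-LFD against 99.9 to 182 on control.

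Across the 9 groups, membership of a group took up a median of 72.5% of a member's variance in log2 CPM, against 49.6% over all genes tested, with a range of 36.9% to 93.1% among members. The highest group mean lay in Ripk3-/- control for 25 members and in Mlkl-/- control for 8, and the lowest in WT CD-HFD for 23 and in Mlkl-/- CD-HFD for 8. These counts describe the order of means and carry no test.

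Genes of the same pathways outside the 41, from lists drawn up with earlier results of these data known, moved in both directions in WT CD-HFD. Of 31 other complement genes tested, 8 rose and 13 fell. The risers were led by the complement receptor integrins Itgax (5.46), Itgam (5.19) and Itgb2 (4.20), which leukocytes carry, and the fallers by the regulator Susd4 (-3.56), by C4a (-3.32) and by the collectin Colec10 (-2.91). Of 39 other coagulation and fibrinolysis genes, 12 rose, led by the urokinase receptor Plaur (4.71), tissue plasminogen activator Plat (4.22) and F13a1 (3.89), the catalytic subunit of factor XIII. The 17 that fell were led by the antitrypsin genes Serpina1e (-3.04), Serpina1d (-1.80) and Serpina1c (-1.44), near-identical copies among which reads may be split.

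Other secreted liver proteins fell in 18 of 30 cases and rose in 6, with a median of -0.51. Serpina3k (-1.87), Apoc3 (-1.30) and Apoa2 (-1.10) fell most, and Saa2 (2.82), Saa1 (2.64) and the haem carrier Hpx (0.93) rose most. Of 15 hepatocyte transcription factors, 9 fell and 1 rose (Cebpb, 0.51). Ppara, Foxa3 and Prox1 fell by 1.09, 0.96 and 0.86 on the log2 scale. Of the 12 interleukin 6 type response genes tested, 4 rose and 3 fell, led by Lcn2 (7.38), Saa3 (3.39) and Cebpd (2.05) and by Lifr (-1.60), Il1b (-1.35) and Hamp (-0.81).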

How the data were processed

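Livers of 3 genotypes on 3 diets were sequenced from directional libraries, per the labels' protocols. The authors deposited raw read counts per Ensembl gene for 44 libraries. The submitters' processing notes name FastQC, STAR, HTSeq, edgeR and limma and the builds GRCm39 and mm39, without parameters. The annotation and strand setting are not given in the sources used here. Symbols came from reference tables (34373 of 35249 genes matched).

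Here, genes were kept by filterByExpr (minimum count 10), scaled by TMM and tested with edgeR 4.0.16 (R 4.3.3), quasi-likelihood F test, 1 mean per group over all 44 libraries, 17 contrasts, Benjamini-Hochberg within each, threshold 0.05. Standard errors were derived from the log2 change and the root of F. The procedure was tested on simulated data. Lengths were exon unions of GENCODE M21 (GRCm38), which may differ from the authors' annotation. Promoters came from RefSeq (GRCm38.p6), and motifs were chosen after the values were seen. Counts of libraries of 1 group always differed beyond sampling noise (93 pairs, chi-square per degree of freedom 6.59 to 96.7).

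Members given in full were those with the largest change per role in WT CD-HFD, the fibrinogen and C1q chains, and at most 6 called between genotypes on a choline-deficient diet or in an interaction. Named genes of other lists were the 3 largest rises and falls in WT CD-HFD. Log2 ratios of Arntl to Dbp were cut at the largest gap that left at least 5 libraries on each side. Members, lists and rules were chosen with earlier results of these data known. Alternatives were RLE, library size, no filter, DESeq2 1.42.0, compared groups only, a replicate block, the clock class as a term or its larger class alone, WT control replicates 5 and 6 left out, WT CD-LFD replicates 5 and 6 left out alone or with them (added after seeing the data), and each library left out. With no molecular identifiers, reads are not independent molecules.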

Additional observations from a re-analysis of the deposited data

Results flagged for a closer look

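Of 140 sets of 4 to 6 libraries (the members given in full, by group), 8 held 1 library far from the others, where chance alone gives about 1 in 20. WT CD-LFD replicate 3, the library of 88204703 counts, held 3 of them: Fga at 4217 CPM against 682 to 1988 in the others, C3 at 7415 against 2788 to 3872, and Cfb at 9.75 against 2.13 to 3.09. Ripk3-/- CD-HFD replicate 1 was low for F7 (57.4 CPM against 76.3 to 78.2) and Plg (849.9 against 1282 to 1366). Mlkl-/- CD-LFD replicate 4 was low for C1qc, at 21.0 CPM against 46.4 to 51.4. C2 was high in the library labelled Ripk3-/- control replicate 5 (78.1 CPM against 46.5 to 58.0) and in Mlkl-/- control replicate 6 (58.3 against 30.6 to 40.6).

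The response to diet differed between Mlkl-/- and WT livers by the interaction test for 5 members on CD-LFD: Fgb (-1.51), Fgg (-1.56), Klkb1 (1.10), C2 (0.80) and C8g (0.81), on the log2 scale, beside 8.45% of all genes, a share near that of the members. On CD-HFD it differed for Fgb (-1.58) and Fgg (-1.63), beside 4.12% of all genes.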

How the results depend on the processing

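Fits that left out 1 library moved the members called and, in brackets, the share of all genes called in either direction. They gave 32 to 37 for WT CD-HFD (43.9% to 51.2%), 15 to 29 for WT CD-LFD (21.6% to 35.8%) and 7 to 11 for CD-HFD against CD-LFD (16.8% to 21.8%). Ripk3-/- CD-HFD and CD-LFD had 29 to 34 (39.4% to 47%) and 8 to 25 (9.11% to 27.6%), and Mlkl-/- 25 to 31 (37% to 45.9%) and 18 to 24 (29.1% to 38%). On control, Ripk3-/- had 2 to 8 (2.65% to 6.88%), with 8 without Ripk3-/- control replicate 1 and 2 without replicates 5 or 6 of that group, and Mlkl-/- had 6 to 12 (21% to 29.8%), with 6 without WT control replicate 5 and 7 without Mlkl-/- control replicate 2. Mlkl-/- on CD-LFD had 0 to 1 (1.21% to 2.94%), and the Mlkl-/- interactions with CD-LFD and CD-HFD had 4 to 7 (5.57% to 12.6%) and 0 to 3 (1.28% to 8.52%).

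In the same form, library size scaling gave 15 for WT CD-HFD (52.7%), 12 for WT CD-LFD (32.8%), 4 for CD-HFD against CD-LFD (23.9%), 19 and 15 for Ripk3-/- CD-HFD and CD-LFD (51.2% and 29.8%), 16 for Mlkl-/- CD-HFD (47.7%), 3 for Ripk3-/- on control (6.4%) and 0 for Mlkl-/- on CD-LFD (5.87%). No count filter, which tests more genes, gave 15 for WT CD-LFD (9.5%), 6 for CD-HFD against CD-LFD (7.8%), 7 for Mlkl-/- on control (9.25%) and 0 for Mlkl-/- on CD-LFD (0.843%). The clock class as a term gave 14 for WT CD-LFD (22.6%), 5 for CD-HFD against CD-LFD (15.1%), 2 and 6 for Ripk3-/- and Mlkl-/- on control (0.828% and 17%) and 0 for Mlkl-/- on CD-LFD (0.00673%), where class and genotype were the same split. Its larger class alone gave 2 and 7 for the knockouts on control (0.927% and 12.7%), 1 for the Ripk3-/- and 4 for the Mlkl-/- interaction with CD-HFD (0.447% and 4.78%). Fitting only the compared groups gave 13 for WT CD-LFD (15.1%), 0 and 5 for the knockouts on control (0.399% and 15.2%) and 1 for Ripk3-/- on CD-HFD (1.81%). Without WT control replicates 5 and 6 the knockouts on control had 3 and 5 (2.38% and 19%). Comparisons that do not use those libraries, but come from the same fit, gave 3 for Mlkl-/- on CD-LFD (4.61%) and 1 for Ripk3-/- on CD-HFD (0.831%). Without WT CD-LFD replicates 5 and 6 (chosen after seeing the data) 13 were called for WT CD-LFD (15.8%) and 0 for Mlkl-/- on CD-LFD (1.18%). With WT control replicates 5 and 6 out too, 20 were called for CD-HFD against CD-LFD (28.3%), 0 for Mlkl-/- on CD-LFD (1.85%), 2 for Ripk3-/- on CD-HFD (1.08%) and 4 and 6 for the knockouts on control (2.43% and 20%). DESeq2 gave 8 for Ripk3-/- on control (6.39%), 2 for Mlkl-/- on CD-LFD (4.26%), and 1 each for Ripk3-/- on CD-HFD and its interaction (0.848% and 1.37%). The cause was not tested.

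Among the 20 members given in full, direction reversed in WT CD-HFD, without a call, for C3 (0.0144 under RLE and under DESeq2, 0.45 under library size, 0.0675 with the clock term, 0.0204 in the larger class, and -0.195 to 0.138 leaving out 1 library, above 0 without WT control replicates 1 or 3 or WT CD-HFD replicate 1), Vtn (0.0615 under library size, 0.0433 in the larger class) and C4b (0.0596 under library size). Among single genes the other settings left 255 values on the same side of the threshold and 39 weaker. Over all groups, the deviations of same-numbered libraries had a median r of -0.0114 (146 pairs, -0.349 to 0.545). Between WT control and WT CD-LFD it was 0.301 and 0.545 for replicates 5 and 6, and 0.0369 and 0.0565 for replicates 2 and 1. Not every pair was over 0.1, and the libraries were not treated as paired. With the replicate block 36 members were called for WT CD-HFD, 3 higher and 33 lower (24.0% and 23.5% of all genes). It gave 6 for Ripk3-/- and 13 for Mlkl-/- on control (4.43% and 27.8% of all genes in either direction). Depth limits Cfb, which had as few as 4 counts in a WT control library.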
